A study of Arabidopsis thaliana with 32 samples.

Results

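Transcript levels of Arabidopsis thaliana seedlings were compared to see which gene functions lose, keep or gain their response to the synthetic auxin NAA when the seedlings carry the label fip37 LEC1:FIP37. The comparison is a difference of differences: the NAA change in fip37 LEC1:FIP37 minus the NAA change in wild type. It used all 12 RNA-seq libraries among the 32 samples of the series, 3 in each of 4 groups, and every gene with a mean of at least 1 RPKM (read number scaled to transcript length and to library size), which were 18072 of 34262. The groups were wild type under mock treatment, wild type given 50 µM NAA for 3 h, fip37 LEC1:FIP37 under mock treatment and fip37 LEC1:FIP37 given the same NAA dose for the same 3 h. All seedlings were 15 days old and grew on Murashige and Skoog medium with sucrose in long days. The label names a fip37 mutant that carries FIP37 behind the LEC1 promoter. LEC1 acts in embryos, and FIP37 is needed for embryos to develop, so such a line is known as a way to obtain fip37 seedlings. The labels do not say whether replicates were separate cultures, so the p-values cover only the spread between libraries, which may be technical.

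Auxin binds receptors of the TIR1/AFB family, which mark Aux/IAA repressors for breakdown and so free ARF transcription factors. The first genes to rise are those of the Aux/IAA, SAUR and GH3 families, which feed back on signalling, act in cell growth and conjugate surplus auxin to amino acids. FIP37 belongs to the writer complex that places N6-methyladenosine (m6A) in messenger RNA.

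FIP37, the gene the label targets, was higher in both groups that carry that label. FIP37 stood at 11.3, 12.4 and 11.3 RPKM in the wild-type mock libraries and 23.3, 20.8 and 11.3 with NAA, against 57.9, 87.3 and 91.8 in the fip37-labelled mock libraries and 58.4, 120.1 and 83.9 with NAA. No fip37-labelled library overlapped a wild-type one. The RPKM does not tell a mutant transcript from the transgene, so these libraries are called fip37-labelled below, and every direction given between genotypes rests on that label. LEC1 itself reached at most 0.471 RPKM in any library, and the 18 seed and embryo markers in the table summed to between 3.19 and 6.55 RPKM, of which OLEO4, an oleosin, made up most in all libraries but wild-type NAA replicate 3 (0.948 to 5.23 RPKM). SESA1, a seed storage albumin, reached 3.08 RPKM in wild-type NAA replicate 3, and the other 16 markers stayed under 1 RPKM in every library. Summed markers of other organs differed by genotype: photosynthesis genes (42) summed to between 55670.0 and 70730.0 RPKM in wild type and between 77180.0 and 96370.0 in the fip37-labelled libraries, 23 root hair genes to between 71.1 and 108 against 16.8 to 57.7, 20 root cell markers to between 628 and 969 against 983 to 1642, and 17 shoot meristem genes to between 73.9 and 87.7 against 106 to 158. BGLU23, a beta-glucosidase, carried the higher root cell sum: the other 19 members summed to between 311 and 527 RPKM in wild type and between 263 and 513 in the fip37-labelled libraries, and of the 15 tested 1 was higher and 6 lower in mock. In such whole seedlings, fewer cells of a type and less RNA per cell cannot be told apart, and the part of organ composition in the results below was not tested. Wild-type NAA replicate 3 stood apart from its group, with 1711 genes at a distance of 2-fold or more from the other 2 libraries' mean, against 321 and 358 for those 2, and its 19 heat shock genes summed to 711 RPKM, against 122 to 305 elsewhere. Counts of the difference, of the classes and of both NAA changes over all genes are therefore given with and without it. List counts of an NAA change in 1 genotype used all 12 libraries.

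The NAA change differed between the genotypes for 306 of the 18072 genes tested, which is 1.69%, with 115 higher (0.636%) and 191 lower (1.06%) in the fip37-labelled seedlings. Without wild-type NAA replicate 3 the count was 2231 (12.3%), 1060 higher (5.87%) and 1171 lower (6.48%). With quantile normalization of all libraries it was 493, 257 higher and 236 lower. Most of the 306 were wild-type responses that did not pass, or passed with a smaller change, in the fip37-labelled seedlings: 169 rises were lost, 102 falls were lost and 3 rises were reduced. A rise is called lost when it passed the test in wild type, the difference passed against it and the fip37-labelled rise did not pass, and reduced when the fip37-labelled rise passed as well. A gain passed in the fip37-labelled seedlings but not in wild type, with the difference called, and this held for 4 rises and 2 falls. A kept response passed in both genotypes with no call on the difference, which was so for 42 rises and 2 falls. The remaining called genes were 25 with no call in either genotype alone and 1, AT5G02440, called in opposite directions. Without wild-type NAA replicate 3, 162 of the 169 lost rises, 97 of the 102 lost falls and 35 of the 42 kept rises were in the same class. The classes were larger without it, with 912 lost rises, 931 lost falls, 17 reduced responses, 41 gains, 63 kept rises and 14 kept falls.

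The 2 NAA contrasts share no library, so they can be set side by side. In wild type 1509 genes passed (8.35% of those tested), of which 605 rose (3.35%) and 904 fell (5%), against 4119 (22.8%), 1943 (10.8%) and 2176 (12%) without wild-type NAA replicate 3. After median-ratio scaling of the libraries 880 rose and 689 fell. In the fip37-labelled seedlings 79 passed (0.437%), of which 68 rose (0.376%) and 11 fell (0.0609%). Without wild-type NAA replicate 3, which enters that contrast through the shared spread, 201 passed (1.11%), 130 as rises (0.719%) and 71 as falls (0.393%), and with sample quality weights 379 rose and 410 fell. At an unadjusted p under 0.05, with all 12 libraries, 1502 of the 18072 genes passed in the fip37-labelled seedlings and 3210 in the difference. The list counts at that threshold below are to be read beside these. Of the 605 wild-type rises, 45 also passed as rises in the fip37-labelled seedlings, and the median change over all 605 was 0.945 on the log2 scale in wild type and 0.03 in the fip37-labelled seedlings. Of the 904 wild-type falls, 2 also passed as falls, and the medians were -0.672 and -0.035. For 391 of the rises and 799 of the falls neither the fip37-labelled change nor the difference passed, so they could be called neither lost nor kept. These had a median difference of -0.764 for the rises and 0.623 for the falls. The wild-type change that chose these genes enters the difference, so the signs of these medians follow largely from that choice. The wild-type medians of the 605 rises and 904 falls rest on the same choice.

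**Figure D1:**
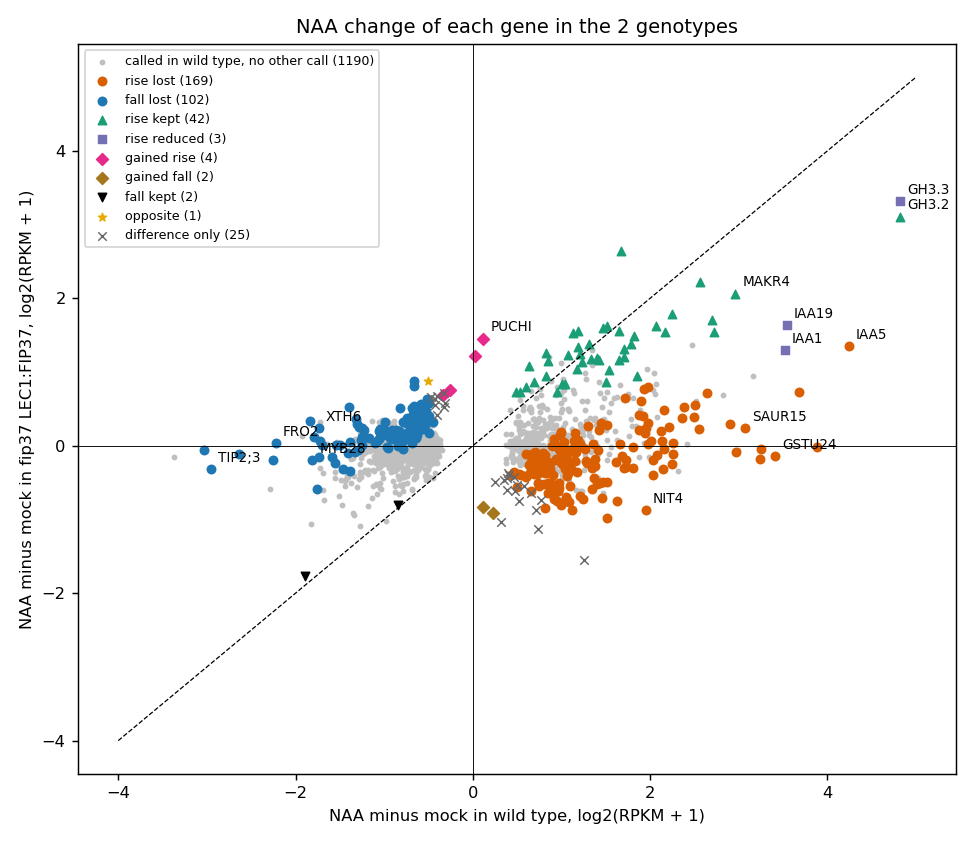
The log2 change with NAA in wild type (x axis) and in the fip37-labelled seedlings (y axis), 1 point per gene called in wild type or placed in a class, coloured by class; the dashed line marks equal change. The 169 lost rises and 102 lost falls lie on both sides of the horizontal axis, with median fip37-labelled changes of -0.222 and 0.197. The 42 kept rises lie at the upper right.

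A lost response can end at different levels, so each lost or reduced gene was placed by its fip37-labelled mock level, on a scale where 0 is the wild-type mock mean and 1 the wild-type NAA mean in log2(RPKM + 1). A position of 0.5 or more was read as already on the NAA side, and one of -0.5 or less as on the far side. Of the 169 lost rises, 57 had a mock level on the NAA side, 84 near the wild-type mock level and 28 on the far side, and the median position was 0.0994. Of the 102 lost falls, 42 were on the NAA side, 39 near, 15 on the far side and 6 at the floor, meaning a mock mean under 1 RPKM, and the median position was 0.443. A gene at the floor has little room for a further fall on this scale. In mock seedlings 38.8% of all tested genes differed between the genotypes, with 2760 higher (15.3%) and 4244 lower (23.5%) in the fip37-labelled ones, or 3844 and 3872 after median-ratio scaling. With NAA 43.8% differed, 19.2% higher and 24.6% lower. Among the lost rises, 59 were higher and 36 lower in mock, and with NAA 3 were higher and 138 lower. Among the lost falls 16 were higher and 53 lower in mock, and 66 were higher and 13 lower with NAA. The class rule and these contrasts share libraries, so the counts describe the classes and test nothing.

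SAUR genes, small auxin-induced genes of cell expansion, made up 13 of the lost rises, all from a mock level near that of wild type. Of 50 tested, 23 rose and 4 fell with NAA in wild type. In the fip37-labelled seedlings 0 passed by limma at the adjusted threshold. At an unadjusted p under 0.05, 7 passed, against 1502 of all 18072 genes. The difference was lower for 13 and higher for 1, SAUR5, and without wild-type NAA replicate 3 it was lower for 19 and higher for 3. Their mock positions lay between -0.282 and 0.192. The median difference over the list was -0.838, against 0.033 over all genes tested. SAUR15 stood at 1.98, 1.77 and 1.49 RPKM in the wild-type mock libraries and 19.8, 20.3 and 26.6 with NAA, against 3.02, 2.49 and 4.0 in the fip37-labelled mock libraries and 5.26, 3.78 and 2.86 with NAA. The fip37-labelled mock and NAA values of SAUR15 overlap, while the wild-type groups are far apart. The difference for SAUR15 was -2.83 (SE 0.28, adjusted p = 0.00146). SAUR65 stood at 2.70, 2.95 and 1.89 RPKM in the wild-type mock libraries and 18.003, 16.6 and 21.6 with NAA, against 3.22, 2.1 and 4.41 in the fip37-labelled mock libraries and 5.14, 5.40 and 2.999 with NAA. The fip37-labelled groups again overlap at a level just above wild-type mock, and the difference was -2.11 (SE 0.33, adjusted p = 0.0116). SAUR66 stood at 4.68, 5.11 and 5.32 RPKM in the wild-type mock libraries and 26.3, 24.7 and 41.5 with NAA, against 3.14, 2.94 and 2.54 in the fip37-labelled mock libraries and 4.44, 5.61 and 2.53 with NAA. Here the fip37-labelled mock values lay below the wild-type mock values, and the difference was -1.98 (SE 0.32, adjusted p = 0.0136). SAUR68 had a wild-type rise of 3.25 and a fip37-labelled change of -0.042, with all 6 fip37-labelled values under 1 RPKM. SAUR27 had a difference of -1.96 (SE 0.36, adjusted p = 0.0220) and SAUR24 one of -1.95 (SE 0.38, adjusted p = 0.0298). Among uncalled members, SAUR21 (AT5G18030) rose by 2.08 in wild type, with a difference of -1.69 (SE 0.39, adjusted p = 0.0522), and SAUR63 rose by 2.07, with -1.23 (SE 0.38, adjusted p = 0.120). The difference of SAUR21 passed without wild-type NAA replicate 3 (-1.40, adjusted p = 0.0179) and without wild-type NAA replicate 2. Over the 12 fits that each left out 1 library, the calls of SAUR15, SAUR65, SAUR66 and SAUR68 held in all, and the call was lost for SAUR27 in 5 (adjusted p from 0.00539 to 0.0679) and SAUR24 in 8 (adjusted p from 0.00251 to 0.101), with the highest adjusted p without wild-type mock replicate 3. SAUR genes of the SAUR19 to SAUR24 and SAUR61 to SAUR68 clusters are near-identical copies, and how reads shared among them were counted is not stated in the labels.

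Aux/IAA repressors, the proteins whose breakdown starts the response, held members that lost, reduced or kept their rise. Of 24 tested, 15 rose in wild type and 6 in the fip37-labelled seedlings, and the difference was lower for 5 and higher for none (lower for 8 and higher for 1 without wild-type NAA replicate 3). With all 12 libraries, 3 of the 15 wild-type rises were lost, 2 reduced and 4 kept. For the rest neither the fip37-labelled change nor the difference passed. IAA5 stood at 0, 0.502 and 0.295 RPKM in the wild-type mock libraries and 19.9, 19.3 and 29.9 with NAA, against 0.695, 0.783 and 0.587 in the fip37-labelled mock libraries and 2.34, 6.13 and 2.35 with NAA. Every fip37-labelled NAA value exceeded the mock values, yet the fip37-labelled change of 1.35 (SE 0.28, adjusted p = 0.0709) did not pass, and the difference was -2.89 (SE 0.39, adjusted p = 0.00648). IAA6 stood at 0.230, 0.400 and 0.179 RPKM in the wild-type mock libraries and 4.12, 2.96 and 7.80 with NAA, against 0, 0.306 and 0.134 in the fip37-labelled mock libraries and 0, 0.160 and 0.165 with NAA. The fip37-labelled groups of IAA6 overlap near 0, and the difference was -2.197 (SE 0.34, adjusted p = 0.0116). IAA1 and IAA19 rose in both genotypes but by less in the fip37-labelled seedlings. IAA1 stood at 16.9, 19.7 and 19.4 RPKM in the wild-type mock libraries and 242, 219.9 and 211 with NAA, against 9.36, 8.87 and 13.3 in the fip37-labelled mock libraries and 22.2, 33.5 and 26.3 with NAA. The fip37-labelled NAA values of IAA1 were above their own mock and above wild-type mock, and far below wild-type NAA. The difference for IAA1 was -2.22 (SE 0.24, adjusted p = 0.00271), beside a mock difference of -0.79 (SE 0.17, adjusted p = 0.00313). IAA19 stood at 8.74, 11.2 and 11.04 RPKM in the wild-type mock libraries and 130.2, 114 and 149 with NAA, against 1.67, 2.47 and 4.42 in the fip37-labelled mock libraries and 8.69, 12.2 and 10.7 with NAA. The fip37-labelled NAA values of IAA19 overlap the wild-type mock values, and the difference was -1.91 (SE 0.32, adjusted p = 0.0155). IAA3 was called with a difference of -1.03 (SE 0.22, adjusted p = 0.0395) and is the list's member with a mock level on the far side (position -0.922). Kept rises were those of IAA29 (2.70 in wild type, 1.70 fip37-labelled), IAA30 (2.25 and 1.79) and, chosen after their values were seen, IAA11 (1.002 and 0.84) and IAA13 (1.07 and 1.23). Their mock differences, fip37-labelled minus wild type, were -1.08, -0.91, -0.17 and -0.82, and passed for IAA29, IAA30 and IAA13. The difference of IAA29 passed without wild-type NAA replicate 3 (-1.02, adjusted p = 0.0392), so that its rise counted as reduced there. In fits that left out 1 library the call on the difference was lost for IAA3 in 9 (adjusted p from 0.0119 to 0.105), highest without wild-type mock replicate 1, the fip37-labelled rise of IAA11 was lost in 9 of 12 (highest adjusted p = 0.239, without fip37-labelled mock replicate 2), and that of IAA19 and of IAA30 in 1 each (0.0516 and 0.0546, both without fip37-labelled NAA replicate 2). At a pseudocount of 0.1 the calls of IAA19 and IAA3 were lost as well. That of IAA3 was also lost without a filter, after median-ratio scaling, after quantile normalization and with the replicate block.

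Of the GH3 enzymes, which conjugate auxin to amino acids, 5 of 7 tested rose in both genotypes, and GH3.9 and GH3.17 passed in neither. Of 15 genes of auxin conjugation and oxidation, 7 rose in wild type and 5 in the fip37-labelled seedlings, and the difference was lower for 2 (4 lower and 1 higher without wild-type NAA replicate 3). GH3.3 stood at 27.95, 28.4 and 32.3 RPKM in the wild-type mock libraries and 878, 744 and 978 with NAA, against 47.8, 29.3 and 55.6 in the fip37-labelled mock libraries and 359.6, 444 and 515 with NAA. GH3.3 rose in both genotypes with no overlap, and its smaller fip37-labelled rise gave a difference of -1.51 (SE 0.30, adjusted p = 0.0319). That call was lost in 8 of the 12 fits that left out 1 library (adjusted p from 0.0102 to 0.0859). GH3.2 stood at 7.63, 9.10 and 8.59 RPKM in the wild-type mock libraries and 240.0, 207 and 369.6 with NAA, against 9.21, 21.2 and 21.3 in the fip37-labelled mock libraries and 153, 133 and 156 with NAA. GH3.2 rose by 4.81 in wild type and 3.11 in the fip37-labelled seedlings, and its difference of -1.71 (SE 0.39, adjusted p = 0.0527) did not pass. It did pass without wild-type NAA replicate 3 (-1.47, adjusted p = 0.0222) and without fip37-labelled mock replicate 1 (adjusted p = 0.0118), with the replicate block, with sample quality weights and at a mean of at least 5 RPKM. GH3.1 stood at 0.462, 0.547 and 0.721 RPKM in the wild-type mock libraries and 8.60, 4.30 and 14.8 with NAA, against 0.218, 0.117 and 0.256 in the fip37-labelled mock libraries and 5.39, 3.26 and 5.32 with NAA. The 2 NAA groups of GH3.1 overlap, and the difference was -0.35 (SE 0.43, adjusted p = 0.744) with a 95% interval from -1.29 to 0.60. GH3.5 and GH3.6, chosen after their values were seen, rose by 1.81 and 1.71 in wild type and by 1.49 and 1.32 in the fip37-labelled seedlings. The fip37-labelled rise of GH3.6 was lost in 4 of 12 such fits (highest adjusted p = 0.0924, without fip37-labelled mock replicate 2). The lost member of the list was UGT74E2, a glycosyltransferase that acts on the auxin indole-3-butyric acid. UGT74E2 stood at 4.101, 5.25 and 6.24 RPKM in the wild-type mock libraries and 52.8, 30.5 and 114 with NAA, against 14.9, 29.3 and 15.9 in the fip37-labelled mock libraries and 23.1, 13.1 and 15.5 with NAA. Its fip37-labelled mock level was 1.71 above wild type (position 0.529), and the difference was -3.42 (SE 0.56, adjusted p = 0.0146).

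Lateral root initiation held 6 of the 42 kept rises. Of 22 genes tested, 9 rose in wild type and 7 in the fip37-labelled seedlings, and the difference was higher for 2 and lower for none (3 and none without wild-type NAA replicate 3). The median NAA change was 0.351 in wild type and 0.622 in the fip37-labelled seedlings, against -0.057 and -0.037 over all genes. MAKR4, a membrane-associated regulator of lateral root founder cells, stood at 0.977, 1.14 and 1.17 RPKM in the wild-type mock libraries and 16.04, 12.9 and 17.36 with NAA, against 1.69, 3.68 and 4.78 in the fip37-labelled mock libraries and 12.8, 21.7 and 15.9 with NAA. MAKR4 reached the same range with NAA in both genotypes, and its difference was -0.90 (SE 0.36, adjusted p = 0.217). LBD17, a LOB-domain transcription factor, stood at 0.636, 0.680 and 0.877 RPKM in the wild-type mock libraries and 6.41, 4.195 and 11.2 with NAA, against 0.808, 2.38 and 1.48 in the fip37-labelled mock libraries and 5.09, 7.69 and 6.17 with NAA. The NAA values overlap between genotypes, with a difference of -0.62 (SE 0.41, adjusted p = 0.477). Of the other kept rises, chosen after their values were seen, LBD16 rose by 2.06 in wild type and 1.63 in the fip37-labelled seedlings, LBD18 by 1.65 and 1.55, and GATA23, a factor of founder cell identity, by 1.47 and 1.59. The fip37-labelled rise of LBD17 was lost in 10 of the 12 fits that left out 1 library and that of LBD16 in 3, with the highest adjusted p (0.173 and 0.0902) without fip37-labelled NAA replicate 2. The 2 called members were PUCHI and CRF2. PUCHI, an AP2/ERF factor of early lateral root primordia, stood at 0.521, 0.744 and 1.19 RPKM in the wild-type mock libraries and 1.11, 0.752 and 0.994 with NAA, against 0.108, 0.231 and 0.189 in the fip37-labelled mock libraries and 2.26, 2.35 and 2.05 with NAA. The wild-type groups of PUCHI overlap, with a change of 0.11 (SE 0.15, adjusted p = 0.698), while the fip37-labelled values lay below all wild-type values in mock and above them with NAA. This gained rise had a difference of 1.34 (SE 0.21, adjusted p = 0.0123). CRF2, a cytokinin response factor, had a difference of 1.08 (SE 0.23, adjusted p = 0.0383) with no call in either genotype, and the difference was lost in 10 of 12 such fits (adjusted p from 0.0131 to 0.121).

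HD-ZIP II factors, which act in shade and auxin responses, and auxin transport genes held both lost and kept rises. Among 10 HD-ZIP II genes, 4 rose in wild type and 2 in the fip37-labelled seedlings, with 2 lower in the difference (2 lower and 1 higher without wild-type NAA replicate 3). HAT22 stood at 29.8, 29.9 and 27.7 RPKM in the wild-type mock libraries and 45.5, 46.4 and 42.6 with NAA, against 28.8, 30.05 and 27.8 in the fip37-labelled mock libraries and 25.9, 29.6 and 24.9 with NAA. The mock values of HAT22 overlap between genotypes and wild-type NAA stands above both, with a difference of -0.71 (SE 0.14, adjusted p = 0.0335). HB18 had a difference of -1.13 (SE 0.25, adjusted p = 0.0481) from a like mock level (position -0.0139). Both calls were lost in 10 of the 12 fits that left out 1 library, with adjusted p up to 0.122 for HB18 and 0.115 for HAT22 (lowest 0.0151 and 0.00836). The call of HB18 was also lost at pseudocounts of 0.1 and 0.5, without a filter and with the replicate block. The homologues HAT2 (1.78 in wild type, 1.38 fip37-labelled) and HB17 (1.33 and 1.18) kept their rise. Of 21 transport genes, 5 rose and 2 fell in wild type and 3 rose in the fip37-labelled seedlings, with 1 lower and 1 higher in the difference (2 and 5 without wild-type NAA replicate 3). LAX2, an influx carrier, rose by 1.13 in wild type and 1.53 in the fip37-labelled seedlings. Over the 12 fits that each left out 1 library, the fip37-labelled rise of LAX2 was lost in 6 (highest adjusted p = 0.0817) and the wild-type rise in 2 (0.0633), and without wild-type NAA replicate 3 the difference passed (0.75, adjusted p = 0.0201). PILS3, a carrier of the endoplasmic reticulum, lost its rise, with a difference of -1.01 (SE 0.20, adjusted p = 0.0323). WAG1, a kinase that acts on PIN proteins, fell by 1.05 in wild type and stood at the floor in the fip37-labelled mock, with a difference of 1.25 (SE 0.25, adjusted p = 0.0342). These 2 calls were lost in 9 and 10 of the 12 fits, with adjusted p from 0.0119 to 0.0946 and from 0.0152 to 0.113. That of WAG1 was also lost at a pseudocount of 0.1 and with the replicate block.

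**Figure D2:**
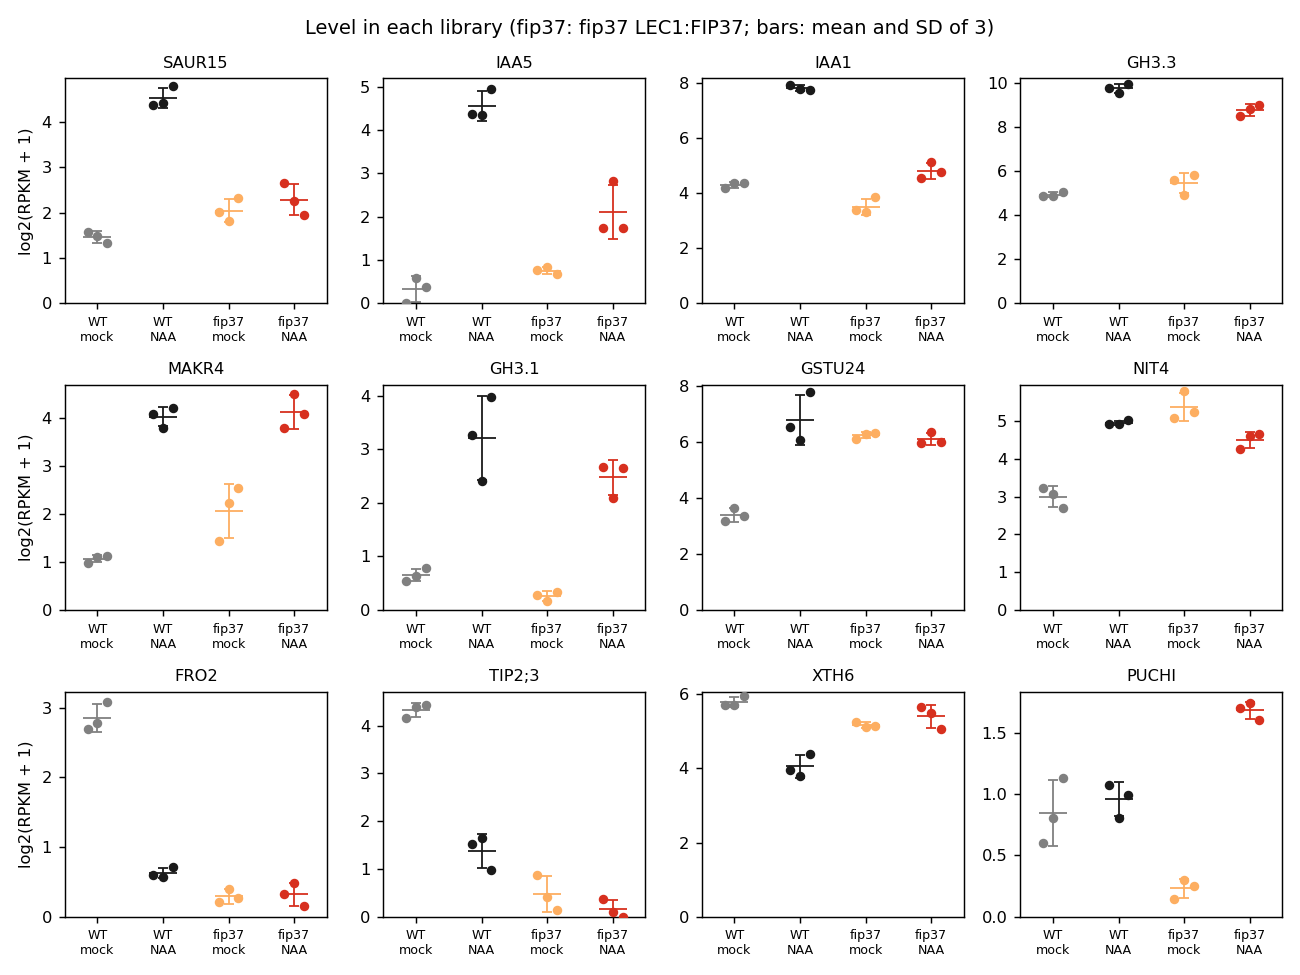
Levels of 12 genes as log2(RPKM + 1) in each library (points, 3 per group) with the group mean and SD, each panel with its own axis from 0. SAUR15 stays near the mock level in the fip37-labelled seedlings, MAKR4 and GH3.1 rise in both genotypes, GSTU24 and NIT4 start high, FRO2 and TIP2;3 start low, and PUCHI stands highest in the fip37-labelled NAA libraries.

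Glutathione and glycosyl transferases, enzymes of detoxification, held 7 lost rises, of which 5 had a mock level already on the NAA side. Of 42 tested, 12 rose and 3 fell in wild type, and in the fip37-labelled seedlings 0 passed by limma (11 at an unadjusted p under 0.05). The difference was lower for 8 and higher for 1 (13 and 3 without wild-type NAA replicate 3), and its median over the list was -1.032, or -0.674 without that library. The other two lost rises had mock positions near 0. GSTU24, a tau-class glutathione transferase, stood at 8.09, 11.5 and 9.31 RPKM in the wild-type mock libraries and 92.8, 66.4 and 224 with NAA, against 69.3, 76.9 and 80.001 in the fip37-labelled mock libraries and 62.1, 81.1 and 63.01 with NAA. All 6 fip37-labelled values lay above every wild-type mock value and below the highest wild-type NAA value. The mock difference was 2.85 (SE 0.33, adjusted p = 5.53e-05) and the difference of the NAA changes -3.55 (SE 0.47, adjusted p = 0.00584). GSTU8 stood at 12.6, 12.4 and 11.4 RPKM in the wild-type mock libraries and 39.7, 30.4 and 36.7 with NAA, against 49.6, 69.1 and 54.3 in the fip37-labelled mock libraries and 33.8, 42.4 and 45.9 with NAA. In GSTU8 the fip37-labelled mock values were above all wild-type NAA values (position 1.46), and the difference was -1.96 (SE 0.22, adjusted p = 0.00339). GSTU25 (-3.902 (SE 0.68, adjusted p = 0.0184), position 0.633), UGT73B4 (-3.06 (SE 0.52, adjusted p = 0.0165), position 0.688) and GSTU1 (-2.49 (SE 0.41, adjusted p = 0.0146), position 0.882) also had raised mock levels, and wild-type NAA replicate 3 was their highest library. Without that library the differences were -3.24, -2.52 and -2.09, each still called. UGT76B1, which glycosylates the immune signal isoleucic acid, had a mock level near wild type (position -0.107) and a difference of -1.82 (SE 0.36, adjusted p = 0.0323). Among uncalled members, UGT73B3 rose by 2.51 in wild type with a difference of -1.90 (SE 0.44, adjusted p = 0.0522), which passed in each of the 3 fits that left out a wild-type NAA library (lowest adjusted p = 6.13e-04, without replicate 3). GSTU11 had a wild-type change of 2.17 (SE 0.74, adjusted p = 0.0926) and a difference of -3.12 (SE 1.05, adjusted p = 0.146). In fits that left out 1 library the call was lost for GSTU25 in 3 (adjusted p from 0.00151 to 0.0611), UGT73B4 in 1 (adjusted p from 7.22e-04 to 0.0504), GSTU1 in 1 (adjusted p from 0.00119 to 0.0504) and UGT76B1 in 8 (adjusted p from 0.00788 to 0.0971), each highest without wild-type mock replicate 3. GSTU24 and GSTU25 are tandem copies, so reads of one may be counted in the other.

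NIT2, of the nitrilases that act on indole-3-acetonitrile, and the nitrilase NIT4 were past the wild-type NAA level in the fip37-labelled mock. Of 6 genes of nitrilases, AMI1 and AAO1, 3 were lower in the difference and none higher, also without wild-type NAA replicate 3. NIT4, which detoxifies beta-cyanoalanine, stood at 8.34, 7.45 and 5.48 RPKM in the wild-type mock libraries and 29.4, 29.005 and 31.4 with NAA, against 32.8, 54.4 and 36.8 in the fip37-labelled mock libraries and 18.1, 23.2 and 24.2 with NAA. The fip37-labelled mock values were all above the wild-type NAA values (position 1.21), and the fip37-labelled NAA values were all below their mock. That change of -0.87 (SE 0.19, adjusted p = 0.101) did not pass, and the difference was -2.82 (SE 0.27, adjusted p = 0.00146). NIT2 stood at 87.5, 80.5 and 60.4 RPKM in the wild-type mock libraries and 216, 244 and 246 with NAA, against 769, 956 and 608 in the fip37-labelled mock libraries and 356, 547 and 482 with NAA. In NIT2 all 6 fip37-labelled values were above every wild-type value (position 2.04), those with NAA below those in mock, with a difference of -2.38 (SE 0.28, adjusted p = 0.00363). AAO1, an aldehyde oxidase, had a difference of -1.12 (SE 0.23, adjusted p = 0.0355) with no call in either genotype alone, lost in 9 of 12 fits that left out 1 library (adjusted p from 0.0141 to 0.112). NIT1 was 2.24 higher in mock and 2.23 higher with NAA, with a difference of -0.0080 (SE 0.30, adjusted p = 0.993). In PEN3, a transporter of indole compounds, the lost rise was small (0.49 in wild type) and the difference of -0.88 (SE 0.19, adjusted p = 0.0466) was lost in 11 of the 12 fits (adjusted p from 0.0143 to 0.134). Of 11 tryptophan synthesis genes, 0 passed by limma in the fip37-labelled NAA change and 0 in the difference (7 and 1 at an unadjusted p under 0.05), and their median mock difference was 1.206.

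**Figure D3:**
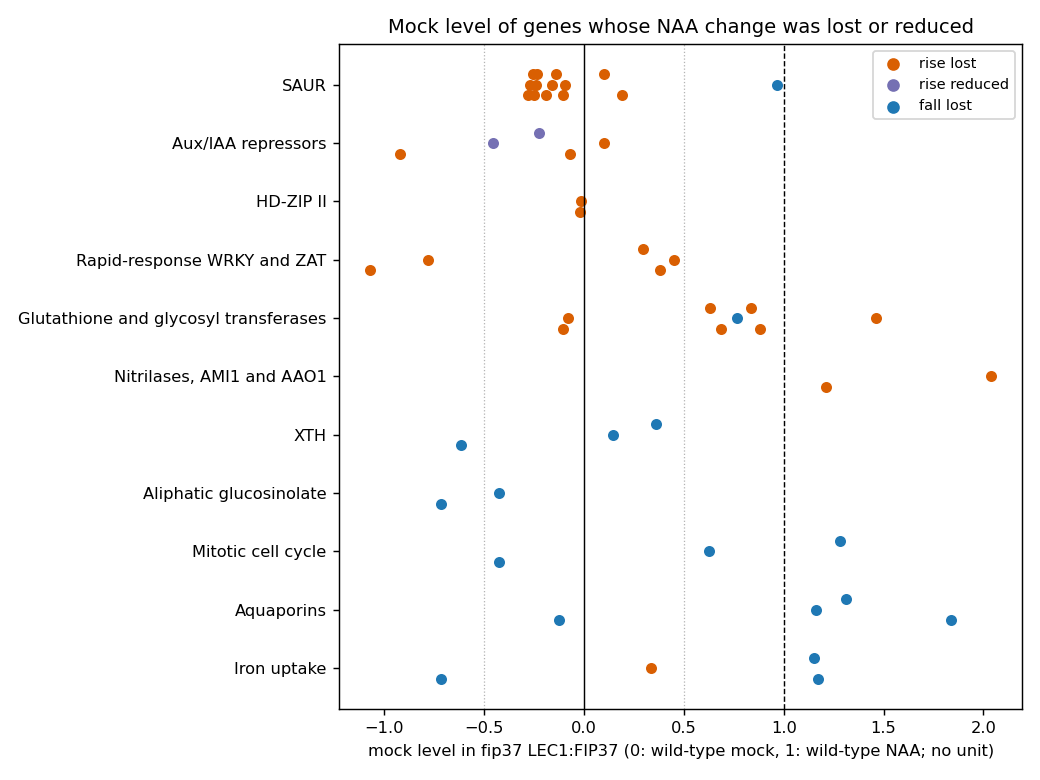
Mock level in the fip37-labelled seedlings of each lost or reduced gene (points) for 11 gene lists, on a scale with no unit where 0 is the wild-type mock mean and 1 the wild-type NAA mean in log2(RPKM + 1); dotted lines mark -0.5 and 0.5. Lost SAUR rises cluster near 0, 5 of 7 lost transferase rises and both lost nitrilase rises lie from 0.633 to 2.04, and lost falls of FRO2, IRT1, TIP2;3, TIP1;1, PIP1;1 and a mitotic cell cycle gene (1.28) lie above 1.

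WRKY and ZAT factors of the rapid stress response held 5 lost rises. Of 27 tested, 9 rose in wild type and 0 passed by limma in the fip37-labelled seedlings (5 at an unadjusted p under 0.05). The difference was lower for 5 and higher for none (14 and none without wild-type NAA replicate 3). The median NAA change was 0.687 in wild type and -0.352 in the fip37-labelled seedlings. The summed level of the list's 32 measured genes was 875 to 1009 RPKM in wild-type mock, 1680.0 to 1751 in wild-type NAA, 653 to 968 in fip37-labelled mock and 479 to 677 in fip37-labelled NAA. WRKY6, a factor of senescence and defence, stood at 41.98, 35.1 and 32.2 RPKM in the wild-type mock libraries and 89.4, 116 and 94.6 with NAA, against 45.9, 83.9 and 48.2 in the fip37-labelled mock libraries and 30.98, 36.99 and 54.99 with NAA. The wild-type groups are apart while the fip37-labelled groups overlap, with a difference of -1.94 (SE 0.34, adjusted p = 0.0206). ZAT10, a zinc-finger factor of abiotic stress, stood at 84.6, 90.8 and 89.1 RPKM in the wild-type mock libraries and 151, 145 and 203 with NAA, against 34.7, 53.1 and 49.2 in the fip37-labelled mock libraries and 21.98, 32.1 and 38.6 with NAA. ZAT10 started below wild type (position -1.07), and the difference was -1.45 (SE 0.30, adjusted p = 0.0343). WRKY51 (-2.21 (SE 0.42, adjusted p = 0.0271)), WRKY28 (-1.15 (SE 0.24, adjusted p = 0.0380)) and WRKY15 (-0.99 (SE 0.22, adjusted p = 0.0430)) were the other called members. Uncalled WRKY40 (-1.71 (SE 0.49, adjusted p = 0.104)) and ZAT12 (-2.12 (SE 0.49, adjusted p = 0.0543)) had their highest value in wild-type NAA replicate 3, and without that library both passed (-1.23, adjusted p = 0.0290 and -1.66, adjusted p = 0.0116). Over the 12 fits that each left out 1 library, the call was lost for WRKY51 in 6 (adjusted p from 0.0115 to 0.0796), WRKY6 in 3 (adjusted p from 0.00670 to 0.0737), ZAT10 in 8 (adjusted p from 0.0137 to 0.102), WRKY28 in 9 (adjusted p from 0.0151 to 0.113) and WRKY15 in 10 (adjusted p from 0.0186 to 0.132). Of 27 salicylate and immune genes 1 was called, NPR3, a salicylate receptor (-1.16 (SE 0.22, adjusted p = 0.0297)), and its call was lost in 7 of the 12 (adjusted p from 0.00922 to 0.101). The defence proteins PR1 and PR2 had uncalled wild-type changes of -2.39 and -0.91 and uncalled differences of -0.28 (adjusted p = 0.955) and -0.30 (adjusted p = 0.886). The list had 5 members lower and none higher without wild-type NAA replicate 3.

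Among lost falls, FRO2, IRT1 and 3 water channel genes were low in the fip37-labelled mock. FRO2, IRT1 and the water channel gene TIP2;3 were at the floor there, with little room for a further fall. FRO2 and IRT1 are the ferric reductase and the ferrous iron transporter of the root surface. FRO2 stood at 5.48, 5.89 and 7.44 RPKM in the wild-type mock libraries and 0.514, 0.491 and 0.637 with NAA, against 0.152, 0.322 and 0.201 in the fip37-labelled mock libraries and 0.248, 0.400 and 0.116 with NAA. FRO2 fell in wild type, every fip37-labelled value was below the wild-type NAA values, and the difference was 2.25 (SE 0.20, adjusted p = 0.00146). IRT1 stood at 9.55, 10.99 and 13.9 RPKM in the wild-type mock libraries and 0.0275, 0 and 2.32 with NAA, against 0.0347, 0.0559 and 0.0366 in the fip37-labelled mock libraries and 0, 0 and 0 with NAA. IRT1 was near 0 in all 6 fip37-labelled libraries (mock difference -3.57 (SE 0.36, adjusted p = 2.20e-05)), and the difference of the NAA changes was 2.98 (SE 0.50, adjusted p = 0.0159). COPT2, a copper transporter, fell in wild type by 0.96 but was higher in the fip37-labelled mock (position -0.714), with a difference of 1.11 (SE 0.23, adjusted p = 0.0355). ABCG37, a root exporter of coumarins and auxin precursors, lost a rise (-1.08 (SE 0.24, adjusted p = 0.0482)). Of 17 iron genes tested, 3 were higher and 1 lower in the difference (4 and 3 without wild-type NAA replicate 3). BTS, a ubiquitin ligase that restrains the iron response, rose by 0.79 in wild type with an uncalled difference of -0.84 (SE 0.28, adjusted p = 0.139), which passed without wild-type NAA replicate 3 (-0.57, adjusted p = 0.0486). NAS1, a nicotianamine synthase, had an uncalled wild-type change of -1.01 and an uncalled difference of 0.85 (SE 0.43, adjusted p = 0.324). The summed root hair markers given above were also lower in the fip37-labelled libraries, and their part in these values was not tested. The call of IRT1 was lost without wild-type mock replicate 3 (adjusted p = 0.0611, with 1.02e-05 as the lowest of 12) and at a pseudocount of 0.1. Those of COPT2 and ABCG37 were each lost in 10 of the 12 fits (adjusted p from 0.0115 to 0.113 and from 0.0168 to 0.130).

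Aquaporins, the water channels of plasma membrane and vacuole, held 4 lost falls. Of 22 tested, 12 fell in wild type and 0 passed by limma in the fip37-labelled seedlings (4 at an unadjusted p under 0.05). The difference was higher for 4 and lower for none, and without wild-type NAA replicate 3 it was higher for 17 and lower for none. The list's median difference was 0.98, or 1.173 without that library. TIP2;3, a vacuolar channel of roots, stood at 16.9, 19.9 and 20.7 RPKM in the wild-type mock libraries and 1.88, 2.11 and 0.958 with NAA, against 0.836, 0.337 and 0.0980 in the fip37-labelled mock libraries and 0.302, 0.0780 and 0 with NAA. Every fip37-labelled value was below every wild-type value, and the difference was 2.64 (SE 0.31, adjusted p = 0.00339). TIP1;1 stood at 329, 369 and 409.5 RPKM in the wild-type mock libraries and 109, 157 and 223 with NAA, against 86.3, 71.7 and 70.9 in the fip37-labelled mock libraries and 107, 79.7 and 82.1 with NAA. The mock level of TIP1;1 was below the wild-type NAA level (position 1.84), with a difference of 1.45 (SE 0.31, adjusted p = 0.0399). PIP1;1 was likewise low in mock (position 1.16, difference 1.18 (SE 0.24, adjusted p = 0.0354)), and PIP2;8 started near wild type (position -0.126, difference 1.11 (SE 0.22, adjusted p = 0.0317)). PIP2;2 fell by 1.56 in wild type, and its difference of 1.202 (SE 0.39, adjusted p = 0.134) did not pass, but it did without wild-type NAA replicate 3 (1.59, adjusted p = 0.00269). NIP5;1, a boric acid channel, fell by 1.43 in wild type, and its difference of 0.98 (SE 0.42, adjusted p = 0.252) did not pass. TIP2;3 was called in all 12 fits that left out 1 library, but not at a pseudocount of 0.1. In those fits the call was lost for TIP1;1 in 10 (adjusted p from 0.00211 to 0.126), PIP1;1 in 11 (adjusted p from 4.75e-04 to 0.113) and PIP2;8 in 10 (adjusted p from 0.00151 to 0.107), and at median-ratio scaling for all 3.

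XTH enzymes, which cut and rejoin wall xyloglucan, held 3 lost falls. Of 24 tested, 7 fell and 1 rose in wild type, 1 rose in the fip37-labelled seedlings, and the difference was higher for 3 and lower for none (7 and none without wild-type NAA replicate 3). XTH6 stood at 50.9, 51.6 and 60.6 RPKM in the wild-type mock libraries and 14.6, 12.9 and 19.8 with NAA, against 36.8, 33.3 and 34.3 in the fip37-labelled mock libraries and 49.3, 43.9 and 32.5 with NAA. The fip37-labelled groups of XTH6 overlap at a level between the wild-type groups, and the difference was 1.98 (SE 0.25, adjusted p = 0.00400). XTH9 stood at 63.7, 76.1 and 77.02 RPKM in the wild-type mock libraries and 14.5, 19.7 and 34.2 with NAA, against 54.8, 66.3 and 61.2 in the fip37-labelled mock libraries and 61.3, 64.9 and 57.1 with NAA. The fip37-labelled groups of XTH9 overlap, with an NAA change of 0.010 (SE 0.23, adjusted p = 0.999), and the difference was 1.71 (SE 0.32, adjusted p = 0.0271). XTH7 stood higher in mock (position -0.617, difference 1.24 (SE 0.25, adjusted p = 0.0335)). XTH15 stood at 803, 969.8 and 1222 RPKM in the wild-type mock libraries and 59.4, 42.4 and 325 with NAA, against 9.72, 11.5 and 5.74 in the fip37-labelled mock libraries and 7.42, 10.3 and 5.85 with NAA. XTH15 had a mock difference of -6.67 (SE 0.57, adjusted p = 7.89e-06), and its difference of the NAA changes, 3.22 (SE 0.81, adjusted p = 0.0698), did not pass. It passed without wild-type NAA replicate 3 (4.11, adjusted p = 2.93e-04), the highest of the 3 wild-type NAA values, without replicate 3 of both wild-type groups and with sample quality weights. XTH19 kept its rise (1.71 and 1.205), as did the expansin EXPA4 (1.04 and 0.84), but the fip37-labelled rise was lost in 3 and 7 of the 12 fits that left out 1 library (highest adjusted p = 0.0924 and 0.110). EXPA5 fell by 1.07 in wild type, with an uncalled difference of 1.08 (SE 0.27, adjusted p = 0.0701) that passed without wild-type NAA replicate 3 (1.16, adjusted p = 0.0207). Another expansin, EXPA3, gained a rise (difference 1.01 (SE 0.17, adjusted p = 0.0146)). The difference was lost without wild-type mock replicate 2 (adjusted p = 0.0527, lowest of 12 fits 0.00259), and the fip37-labelled rise itself in 8 of the 12 (highest adjusted p = 0.168). Fits that left out 1 library lost the call of XTH9 in 9 (adjusted p from 3.06e-04 to 0.0928) and XTH7 in 8 (adjusted p from 0.0119 to 0.101), each highest without wild-type mock replicate 3, and none lost that of XTH6.

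Aliphatic glucosinolate genes, which make methionine-derived defence compounds, held 2 lost falls, both with higher levels in the fip37-labelled mock. Nearly the whole list shared this: 19 of the 20 tested were called higher there and 0 lower, with a median mock difference of 1.74. With NAA 19 were also called higher and 0 lower. Over all genes tested, 15.3% were higher in mock and 19.2% with NAA. Of 20 tested, 9 fell in wild type and 0 passed by limma in the fip37-labelled seedlings (1 at an unadjusted p under 0.05). The difference was higher for 2 and lower for none (6 and none without wild-type NAA replicate 3). MYB28, an activator of the pathway, stood at 13.2, 10.6 and 13.03 RPKM in the wild-type mock libraries and 3.96, 2.24 and 2.30 with NAA, against 19.7, 19.3 and 26.6 in the fip37-labelled mock libraries and 17.42, 18.9 and 20.2 with NAA. The wild-type fall left MYB28 far below the 6 fip37-labelled values, and the difference was 1.62 (SE 0.26, adjusted p = 0.0122). CYP79F2, a cytochrome P450 that acts on chain-elongated methionine, had a difference of 1.15 (SE 0.23, adjusted p = 0.0335) (position -0.715). MAM3 and IPMI1, of methionine chain elongation, fell by 2.28 and 1.73 in wild type, with uncalled differences of 1.70 (SE 0.46, adjusted p = 0.0884) and 1.43 (SE 0.35, adjusted p = 0.0648). Both passed without wild-type NAA replicate 3 (1.304, adjusted p = 0.0320 and 1.23, adjusted p = 0.0304) and without wild-type NAA replicate 1. SDI1, a repressor of the pathway that rises when sulfur is short, fell from 6.01, 7.75 and 9.43 RPKM to 0.106, 0.241 and 0.923 in wild type and had a difference of 2.52 (SE 0.54, adjusted p = 0.0418). Unlike MYB28 and CYP79F2, SDI1 had a fip37-labelled mock level on the NAA side (position 0.54). It was the 1 called member of 14 tested sulfur limitation genes, beside 1.69% of all genes. Without wild-type NAA replicate 3 that list had 5 higher and 0 lower, beside 12.3% of all genes called. In fits that left out 1 library MYB28 stayed called in all 12, while the call was lost for CYP79F2 in 10 (adjusted p from 0.00836 to 0.0973) and SDI1 in 9 (adjusted p from 0.00886 to 0.129). The calls of CYP79F2 and SDI1 were also lost without a filter, and that of SDI1 at a pseudocount of 0.1.

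Mitotic cell cycle genes held 3 lost falls. Of 35 tested, 4 fell in wild type and 0 passed by limma in the fip37-labelled seedlings (5 at an unadjusted p under 0.05). The difference was higher for 3 and lower for none (12 and none without wild-type NAA replicate 3). CYCA1;1 stood at 2.38, 2.26 and 2.78 RPKM in the wild-type mock libraries and 1.37, 1.34 and 1.44 with NAA, against 2.83, 2.97 and 3.42 in the fip37-labelled mock libraries and 3.72, 4.33 and 3.75 with NAA. The cyclin CYCA1;1 fell in wild type and had higher fip37-labelled NAA values than mock values without a call, with a difference of 0.82 (SE 0.17, adjusted p = 0.0362). CYCB1;3 (0.86 (SE 0.17, adjusted p = 0.0298)) and CYCA2;3 (0.81 (SE 0.18, adjusted p = 0.0481)) were the other lost falls. Both had a fip37-labelled mock level on the NAA side (positions from 0.625 to 1.28), while that of CYCA1;1 was near wild-type mock (-0.427). The cyclins CYCD1;1 and CYCD3;1 had uncalled differences of 0.70 (SE 0.24, adjusted p = 0.159) and 0.69 (SE 0.27, adjusted p = 0.206), which passed without wild-type NAA replicate 3 (0.82, adjusted p = 0.0453 and 0.91, adjusted p = 0.0184). Over the 12 fits that left out 1 library, the call was lost for CYCA1;1 in 10 (adjusted p from 0.0133 to 0.122), CYCB1;3 in 10 (adjusted p from 0.0134 to 0.105) and CYCA2;3 in 11 (adjusted p from 0.0137 to 0.151). All 3 calls were lost with the replicate block, and those of CYCA1;1 and CYCA2;3 without a filter. That of CYCA2;3 was also lost at a pseudocount of 0.1, after median-ratio scaling and after quantile normalization. Outside the lists, and chosen after their values were seen, PCNA1, the replication clamp, had a difference of 0.89 (SE 0.20, adjusted p = 0.0453), and DUT1, which removes dUTP, one of 1.06 (SE 0.19, adjusted p = 0.0197). DUT1 stood at 7.11, 7.29 and 5.90 RPKM in the wild-type mock libraries and 5.82, 4.47 and 4.16 with NAA, against 12.01, 12.5 and 10.8 in the fip37-labelled mock libraries and 18.23, 19.5 and 18.6 with NAA. DUT1 was higher in every fip37-labelled library than in any wild-type one and highest with NAA. The call of PCNA1 was lost in 10 of the 12 fits and that of DUT1 in 2 (adjusted p from 0.0174 to 0.137 and from 0.00687 to 0.0685).

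Gains numbered 4 rises and 2 falls. Besides PUCHI and EXPA3, AT4G25433 (1.19 (SE 0.25, adjusted p = 0.0383)) and UNG, the uracil-DNA glycosylase of base repair (1.02 (SE 0.18, adjusted p = 0.0220)), gained a rise. UNG stood at 0.539, 0.977 and 0.668 RPKM in the wild-type mock libraries and 0.527, 0.335 and 0.447 with NAA, against 1.68, 1.69 and 1.95 in the fip37-labelled mock libraries and 3.91, 3.70 and 3.45 with NAA. UNG was higher in every fip37-labelled library than in any wild-type one, and its fip37-labelled NAA values were above all mock values. The gained falls were AT5G46080 (-1.15 (SE 0.24, adjusted p = 0.0383)) and AT4G15270 (-0.95 (SE 0.20, adjusted p = 0.0355)). AT5G02440 stood at 17.2, 16.8 and 17.64 RPKM in the wild-type mock libraries and 9.64, 11.2 and 15.1 with NAA, against 10.9, 10.7 and 9.67 in the fip37-labelled mock libraries and 19.1, 21.2 and 20.05 with NAA. AT5G02440 fell in wild type and rose in the fip37-labelled seedlings, with a difference of 1.39 (SE 0.20, adjusted p = 0.00756). PUCHI was the 1 gain whose fip37-labelled rise and difference were called in each of the 12 fits that left out 1 library. In those fits the difference was lost for AT4G25433 in 9 (adjusted p from 0.0143 to 0.118), UNG in 4 (adjusted p from 0.00879 to 0.0687), AT5G46080 in 10 (adjusted p from 0.00658 to 0.122) and AT4G15270 in 10 (adjusted p from 0.0151 to 0.112). The fip37-labelled change that defines the gain was lost for AT4G25433 in 2, UNG in 7, AT5G46080 in 11 and AT4G15270 in 5, with the highest adjusted p (0.0701, 0.142, 0.216 and 0.127) without fip37-labelled mock replicate 2. The difference of AT5G02440 was called in all 12, but its wild-type fall was lost in 9 of 12 and its fip37-labelled rise in 4 of 12. Of the 25 genes with a difference alone, those with the largest sizes were AT2G45220 (-2.81 (SE 0.55, adjusted p = 0.0298)), PHT3;2, a mitochondrial phosphate carrier (-1.87 (SE 0.36, adjusted p = 0.0279)), and AT1G72060 (-1.58 (SE 0.29, adjusted p = 0.0220)). PHT3;2 stood at 1.47, 0.997 and 0.834 RPKM in the wild-type mock libraries and 2.46, 1.99 and 3.07 with NAA, against 6.71, 13.4 and 12.4 in the fip37-labelled mock libraries and 2.84, 5.48 and 4.63 with NAA. Its NAA changes were 0.74 (SE 0.25, adjusted p = 0.0945) in wild type and -1.14 (SE 0.25, adjusted p = 0.106) in the fip37-labelled seedlings, neither of them called. Changes of opposite sign with no call were also measured for MPK11 (-1.50 (SE 0.34, adjusted p = 0.0482)), AT3G25610 (-1.299 (SE 0.27, adjusted p = 0.0387)) and the peroxidase PRXCB (-1.35 (SE 0.29, adjusted p = 0.0430)). In the fits that left out 1 library, the call was lost for AT2G45220 in 5 (adjusted p from 0.0128 to 0.101), PHT3;2 in 6 (adjusted p from 0.0119 to 0.0963), AT1G72060 in 3 (adjusted p from 0.00433 to 0.0617), MPK11 in 8 (adjusted p from 0.0210 to 0.142), AT3G25610 in 10 (adjusted p from 0.0124 to 0.118) and PRXCB in 8 (adjusted p from 0.0147 to 0.129). The call of MPK11 was also lost at a pseudocount of 0.1, without a filter, after median-ratio scaling and with the replicate block. Leaving out replicate 3 of both wild-type groups lost it as well.

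Of the 169 lost rises 130 lay outside the 41 lists, as did 83 of the 102 lost falls. AT1G60750, among the 6 lost rises that the naming rule takes by size, had a difference of -2.95 (SE 0.54, adjusted p = 0.0226) (position 0.463). RGF9, a root meristem growth factor peptide, and the next 3 genes were chosen after their values were seen. RGF9 stood at 5.68, 3.71 and 3.36 RPKM in the wild-type mock libraries and 37.5, 27.3 and 24.2 with NAA, against 14.5, 19.5 and 16.9 in the fip37-labelled mock libraries and 20.102, 20.7 and 19.1 with NAA. The fip37-labelled values lay between the wild-type groups in both treatments, and the difference was -2.31 (SE 0.27, adjusted p = 0.00339). AOX1A, the alternative oxidase of mitochondria (-1.48 (SE 0.30, adjusted p = 0.0343), position 0.811), NDB2, an alternative NADH dehydrogenase (-1.65 (SE 0.29, adjusted p = 0.0197), position 0.558), and the cytochrome P450 CYP81D8 (-2.37 (SE 0.45, adjusted p = 0.0265), position 0.518) also started on the NAA side. Among lost falls outside the lists, ADS1, a fatty acid desaturase, was low in mock (position 1.69, difference 2.17 (SE 0.30, adjusted p = 0.00648)), and AT1G28660 started between the wild-type groups (position 0.412, difference 2.06 (SE 0.31, adjusted p = 0.00996)). Of the 42 kept rises 21 lay outside the lists, among them AT5G66940, with changes of 1.67 in wild type and 2.64 in the fip37-labelled seedlings. The fip37-labelled rise of AT5G66940 was lost in 5 and the wild-type rise in 3 of the 12 fits that left out 1 library (highest adjusted p = 0.0713 and 0.0954), and the difference passed without wild-type NAA replicate 3 (1.61, adjusted p = 0.00357), which ends the kept class there. The 2 kept falls were those of AT4G15390 (-1.89 and -1.76) and PMEPCRA, a pectin methylesterase (-0.84 and -0.80). The fip37-labelled falls of AT4G15390 and PMEPCRA were lost in 4 and 10 of the 12 fits that left out 1 library, with the highest adjusted p at 0.104 and 0.220. RGF9, ADS1 and AT1G28660 stayed called in all 12 fits that left out 1 library, and the call was lost for AT1G60750 in 4 (adjusted p from 0.00954 to 0.0693), AOX1A in 8 (adjusted p from 0.00788 to 0.112), NDB2 in 4 (adjusted p from 0.00323 to 0.0664) and CYP81D8 in 8 (adjusted p from 0.00640 to 0.0771). That of AOX1A was also lost without a filter, after median-ratio scaling, after quantile normalization and with the replicate block.

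No member passed in the difference for 21 of the 41 lists, by limma at an adjusted p under 0.05: receptors, ARFs, TAA and YUC, tryptophan, root hair, root cells, seed and embryo, shoot meristem, jasmonate, heat shock, both ethylene lists, cytokinin, brassinosteroid, gibberellin, abscisic acid, clock, photosynthesis, flavonoids, wax and lipid, and m6A writers, erasers and readers. At an unadjusted p under 0.05, 67 of their 354 tested members passed, against 3210 of all 18072 genes. Without wild-type NAA replicate 3, 15 of the 21 lists had a call, with 26 members higher and 16 lower, among them abscisic acid and clock (each 2 higher and 4 lower), brassinosteroid (4 and 1), ethylene synthesis (1 and 4) and gibberellin (3 and 0). Over all genes tested, 12.3% were called without that library, 5.87% higher and 6.48% lower, so calls in these lists are to be read beside that share. The 6 lists still with none were tryptophan, seed and embryo, heat shock, cytokinin, wax and lipid, and m6A. A missing call does not show an equal response. The ethylene synthesis genes ACS4 and ACS11 rose by 2.83 and 1.60 in wild type, with fip37-labelled changes of 0.69 and 0.65 and uncalled differences of -2.14 (SE 0.52, adjusted p = 0.0643) and -0.95 (SE 0.28, adjusted p = 0.107). ACS4 stood at 0.369, 0.451 and 0.443 RPKM in the wild-type mock libraries and 17.42, 10.9 and 3.65 with NAA, against 0.219, 0.176 and 0.297 in the fip37-labelled mock libraries and 1.32, 1.16 and 0.543 with NAA. The fip37-labelled NAA values were above their mock and far below the first 2 wild-type NAA libraries. The differences of ACS4 and ACS11 passed without wild-type NAA replicate 3 (-2.70, adjusted p = 3.89e-04 and -1.16, adjusted p = 0.00868). The auxin receptors TIR1 and AFB1 fell by 0.47 and 0.54 in wild type and had mock differences of -0.90 and -1.40, with uncalled differences of 0.34 (SE 0.16, adjusted p = 0.299) and 0.74 (SE 0.21, adjusted p = 0.0917), which also passed without that library (0.45, adjusted p = 0.0496 and 0.91, adjusted p = 0.00625). In heat shock genes the median difference was -1.028 with all libraries and -0.017 without wild-type NAA replicate 3. The hypoxia and light signalling lists, with 16 and 29 members tested, had 1 call each, beside 1.69% of all genes tested. Without wild-type NAA replicate 3 they had 3 higher and 1 lower, and 6 higher and 5 lower, beside 12.3% of all genes called. The calls with all 12 libraries were SUS1, a sucrose synthase, at -1.35 (SE 0.23, adjusted p = 0.0182) and ELIP2, an early light-induced protein, at -1.29 (SE 0.27, adjusted p = 0.0383). They were lost in 2 and 9 of the 12 fits that left out 1 library (adjusted p from 0.00592 to 0.0632 and from 0.0137 to 0.117). That of ELIP2 was also lost without a filter, after median-ratio scaling, after quantile normalization and with the replicate block.

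**Figure D4:**
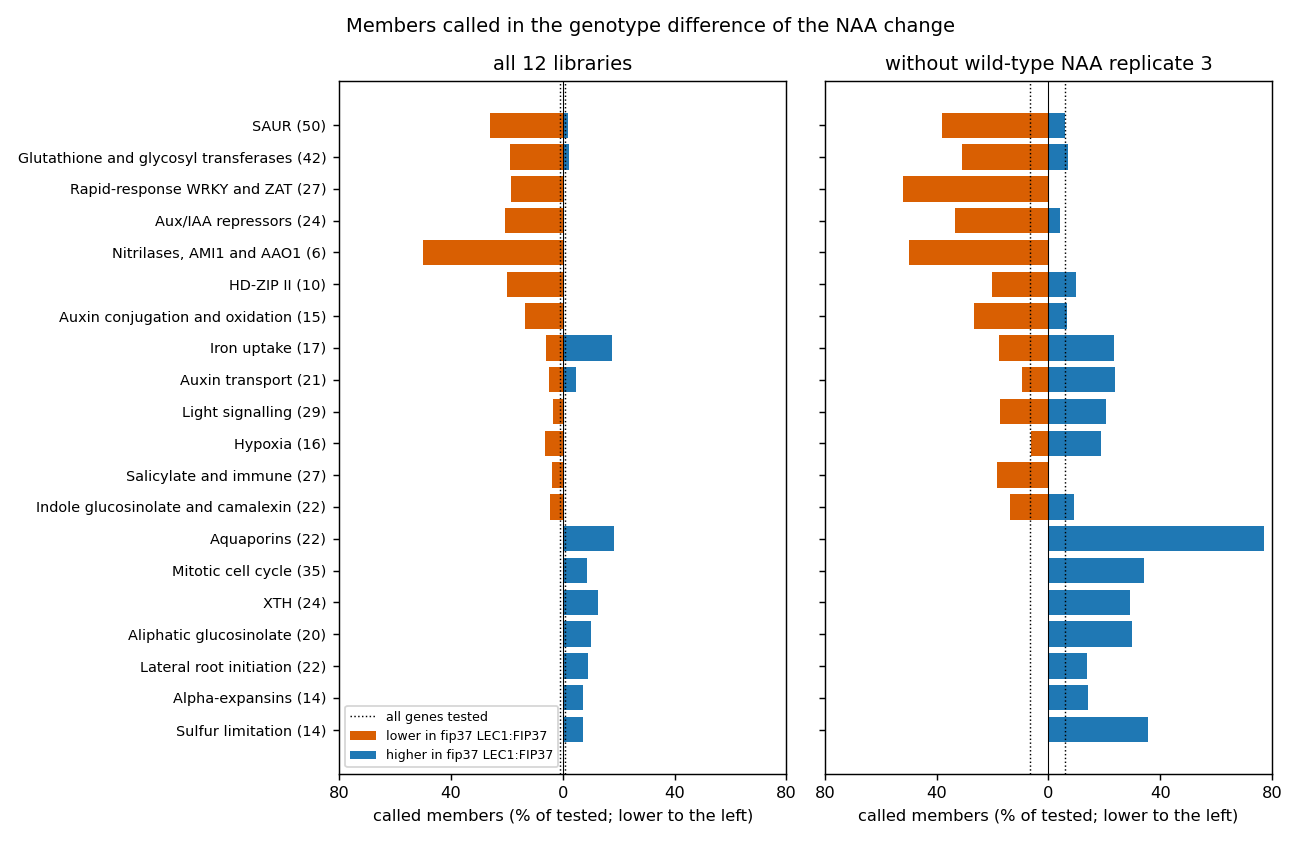
Share of tested members called lower (left) or higher (right) in the difference of the NAA changes, in percent, for the 20 lists with a call, with all 12 libraries and without wild-type NAA replicate 3; numbers in parentheses are members tested, and dotted lines mark the share over all genes. Called SAUR, transferase, WRKY and Aux/IAA members lie mostly to the left and called aquaporin members to the right in both panels.

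The m6A peak lists of wild type, deposited for the same series, were set beside the classes as a readout that the classes did not use. A gene was counted when a replicate 1 peak, of mock or of NAA, overlapped a replicate 2 peak. The replicate 1 summit had to lie in that gene alone. Of all 18072 tested genes 23.3% had such a peak. The share was 20.12% of the 169 lost rises (34 genes), 12.7% of the 102 lost falls (13 genes) and 16.7% of the 42 kept rises (7 genes). Peak detection moves with expression: over quartiles of mean RPKM the share rose from 2.26% to 16.7%, 34.0% and 40.1%, and the median mean RPKM was 17.7 in lost rises, 8.41 in lost falls, 11.6 in kept rises and 9.52 over all. The shares of lost rises, lost falls and kept rises were each below that of all tested genes, and in the class of 3 reduced rises IAA19 had a peak with NAA. Of the lost rises, 23 had a peak in mock and 28 with NAA. Named genes with a peak included HAT22 and NPR3 in both treatments, GSTU1, SAUR66, ABCG37 and MAKR4 with NAA, and MYB28 in mock.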

How the data were processed

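Libraries were RNA-seq of whole seedlings, 12 in 4 groups of 3. Columns named for a genotype alone were read as mock. The RPKM values were deposited by the authors. Alignment with STAR 2.5.3a to TAIR10 stands in the submitters' processing notes. Neither the counting tool, nor strand, nor multi-mapping is stated there, and read totals are not given, so no counting interval is stated. The steps between low RPKM values place the libraries at 83.6% to 152% of the depth of wild-type mock replicate 1, and 0 columns were left unassigned.

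Each gene that averaged 1 RPKM or more was taken as log2(RPKM + 1), a scale that understates the change of low genes. One limma 3.58.1 model (R 4.3.3, mean-variance trend, 4 group means) gave each contrast, two-sided, with Benjamini-Hochberg adjustment over all 18072 genes and a threshold of 0.05. The procedure was tested on simulated data. It recovered 46 of 100 true differences of 1 on the log2 scale and 90 of 100 of 2, with 9 false among 145 calls. The simulated noise had 1 spread per gene in all libraries, so no library stood apart as wild-type NAA replicate 3 does. Gene names came from RefSeq TAIR10.1, where 32548 of 34262 IDs matched. The members and lists were chosen with earlier results of these data known. The text names, for each class, the 6 genes with the largest difference whose mock and NAA values do not overlap in the genotype that defines the class. For kept classes it names the 6 with the largest smaller NAA change. For each list described it names up to 6 called members by size and up to 2 uncalled members with the largest wild-type change, and FIP37. Lists given mainly by their counts do not have every such member named. Genes outside this rule are marked as chosen after their values were seen. A gene of the transport list that the rule takes is not reported here.

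Wild-type m6A peaks were called with MACS 2.2.6 for each replicate, per the file headers, and the −log10 q values are those deposited by the authors. A peak counted as reproducible when the replicates overlapped by 50% of the shorter peak. The authors' deposited enrichment score for 35S:FIP37 peaks was not used, and the positions of that list served to check gene coordinates. Python 3.11.15 made the counts. Alternatives were the pseudocount, the filter, scaling, the variance model, a replicate block, left-out libraries, the peak threshold and the peak overlap.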

Additional observations from a re-analysis of the deposited data

Results flagged for a closer look

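The genotype difference of the NAA change passed the test of the difference itself for 306 genes, which is what brought them here. It was lower in the fip37-labelled seedlings for 191 of them and higher for 115. SAUR15 (-2.83), NIT4 (-2.82) and FRO2 (2.25) are examples that were called in each of the 12 fits that left out 1 library. FRO2 was at the floor in the fip37-labelled mock, which left little room for a fall there.

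For 1 gene, AT5G02440, the NAA change was called in both genotypes with opposite signs. Its change was -0.51 (SE 0.14, adjusted p = 0.0438) in wild type and 0.88 (SE 0.14, adjusted p = 0.0167) in the fip37-labelled seedlings, with a difference of 1.39 (SE 0.20, adjusted p = 0.00756) by limma, and the 3 NAA values lay below the 3 mock values in wild type and above them in the fip37-labelled seedlings.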

How the results depend on the processing

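Over the fits that left out 1 library at a time, the called genes ranged from 68 to 2231 for the genotype difference, 477 to 4119 for NAA in wild type, 31 to 201 for NAA in the fip37-labelled seedlings, 5185 to 8851 for mock and 6385 to 9112 under NAA. Called list members ranged from 24 to 204. Lost rises ranged from 44 to 912, lost falls from 12 to 931, reduced responses from 1 to 17, gains from 1 to 41 and genes with a difference alone from 4 to 310. Kept rises ranged from 22 to 63, kept falls from 0 to 14 and opposite calls from 0 to 17. Each of these highest counts came without wild-type NAA replicate 3. Mock position was recomputed under alternatives chosen after seeing the data. Left-out libraries gave 28.4% to 42.3% of lost rises on the NAA side and 46.2% to 65.9% near, and 19% to 46.4% of lost falls on the NAA side and 34.5% to 52.4% near. A pseudocount of 0.1 gave 43.3% of lost rises on the NAA side, and leaving out replicate 3 of both wild-type groups gave 26.5%. That last setting gave 1053 genes in the difference (505 higher, 548 lower), 2475 and 163 for NAA in wild type and fip37-labelled seedlings, 133 list members, 411 lost rises, 438 lost falls, 11 reduced, 25 gained, 156 with a difference alone, 6 kept falls and 11 opposite. Sample quality weights called 5486, 9282, 789 and 12740 genes for the difference, NAA in wild type, NAA in fip37-labelled seedlings and the difference under NAA, and 354 list members. Without a filter the difference had 192 genes and 40 list members. Quantile normalization gave 493 for the difference and 125 for NAA in the fip37-labelled seedlings, which had 48 at a mean of at least 5 RPKM. A pseudocount of 0.1 gave 3 gains and 4 kept falls. At a −log10 q of at least 5 the shares with an m6A peak were 8.28%, 6.86% and 4.76% of lost rises, lost falls and kept rises, against 14.6% of all tested genes. The cause of these shifts was not tested. Same-numbered libraries correlated from -0.103 to 0.397 in their deviations from group means. Differently numbered libraries were not compared, so these values cannot decide whether the numbers pair the samples. The fit with the replicate block called 264 genes in the difference (86 higher, 178 lower). Of the 75 named genes called, 22 were called in all 12 fits that left out 1 library, all 75 without wild-type NAA replicate 3, and no call reversed its sign. Of those 75 calls, 32 were lost without a filter, 18 with the replicate block, 13 at a pseudocount of 0.1 and 12 after median-ratio scaling. Promoter motifs were not run. Read totals are not given, so counting error at low RPKM could not be stated.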
